A study of Mus musculus with 12 samples.

Results

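The comparison described here is between 2 kinds of Tyk2-mutant natural killer (NK) cells taken from tumours: cells without the TYK2 protein (Tyk2-/-, labelled TYK2KO, here KO) and cells with a TYK2 protein that a point mutation has left without kinase activity (labelled TYK2KE, here KE). Its members are the 2 KO and the 2 KE libraries of NK cells, 4 of the 12 RNA-seq libraries of the series, chosen by their titles, and all genes were compared. Since both mutants lack TYK2 kinase activity and only KE mice keep the protein, the comparison asks for functions of TYK2 that need the protein but not its activity. The other libraries are 2 of NK cells from wild-type (WT) C57BL/6N mice, which serve here as a reference, and 6 of CD8 T cells of the same 3 genotypes.

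All mice carried subcutaneous transplants of MC38, a colon adenocarcinoma cell line of the mouse, and the labels name no further treatment. Tumours were taken after 8 to 10 days, and 300 cells per library were sorted as CD45+, CD3ε- and NK1.1+. Both mutations are present in every cell of the mouse from birth, so that the NK cells, the other immune cells and the stroma of the tumour all carried them, and both alleles were made in cells of another strain and kept on a C57BL/6N background. The methods give age- and sex-matched young adult mice for the transplants. The labels do not say whether the 2 libraries of a group came from separate mice or tumours, so that p-values measure the spread between these libraries, which may be technical in part.

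TYK2 is one of the Janus kinases (JAKs), which sit on the inner tails of cytokine receptors and, once the receptor has bound its cytokine, phosphorylate the receptor and the STAT transcription factors. It serves the receptors for type I interferons, IL-12, IL-23, IL-10 and related cytokines. In NK cells, which kill by releasing perforin and granzymes, IL-12 drives interferon-γ production and type I interferon supports cytotoxicity. Apart from its catalytic activity, TYK2 can act as a scaffold that holds receptor chains such as IFNAR1 at the cell surface, and kinase-independent roles have been described in mitochondrial respiration and NK cell maturation.

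The 4 libraries held between 10378761 and 12741504 counts. All 15 NK identity markers were detected in each of them, with a summed level of 29094 to 33139.9 CPM (counts per 1000000 after TMM scaling). The 22 myeloid markers summed to 14792 CPM in KO 1 against 969 in KO 2, 803 in KE 1 and 1563 in KE 2, and to 23696 and 25648 in the WT libraries, and 1 to 3 of them had no count in each mutant library. KO 1 and the WT libraries thus stood apart by myeloid transcripts such as H2-Aa, a class II histocompatibility chain, at 1375 and 57.4 CPM in KO 1 and KO 2 and 10.2 and 101 CPM in KE. T cell markers summed to 1279.7 to 1634 CPM over the 4 libraries, and neutrophil markers summed to at most 0.464 CPM in each. In such bulk samples fewer cells of a type and less RNA per cell cannot be told apart. Tyk2 itself (chr9:21104068-21131243 on GRCm38, minus strand, chromosome 9) was read at 55.7 and 104 CPM in KO, 119 and 81.5 CPM in KE and 60.5 and 68.3 CPM in WT, and the groups overlapped (log2 fold change of KO against KE -0.33, 95% interval -1.40 to 0.75). The counts cover the whole gene and do not show which exons were read, so they check neither label, and KO and KE below mean the libraries so labelled.

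No gene differed between KO and KE NK cells at a false discovery rate (FDR, the Benjamini-Hochberg adjusted p of edgeR's quasi-likelihood test) under 0.05 with at least a 2-fold change (0 of 13129 genes tested, 0.0%), and the smallest adjusted p was 0.564. At an unadjusted p under 0.05 there were 505 genes (3.85%), 232 of them higher in KO (1.77%) and 273 lower in KO (2.08%), while the threshold alone lets through 656 of 13129 genes where nothing differs. limma-voom likewise called 0 genes. DESeq2, the tool that the study used, called 197 at the same thresholds. Of these, 152 had at most 3 counts in both libraries of one mutant and 6 had a mean of at least 50 CPM. DESeq2 called 30 of the 115 genes named in this text. Both KO libraries lay above both KE libraries for 1823 genes (13.9%) and below them for 1909 (14.5%). Since no gene passed edgeR's test, what follows describes levels, and "higher" and "lower" compare means without a call.

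**Figure D1:**
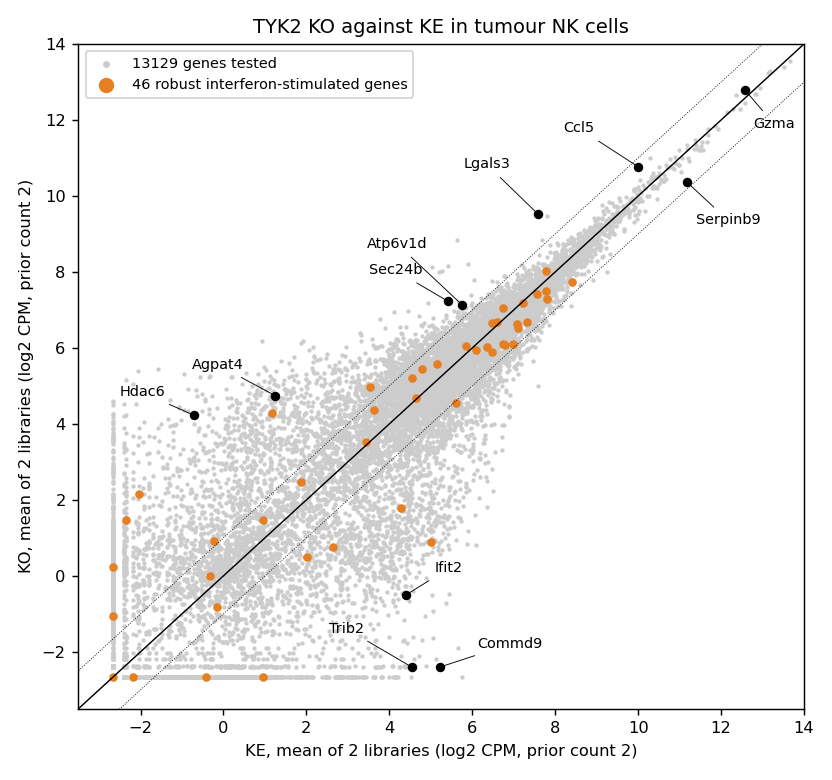
Mean level of each gene tested in the 2 KO libraries (vertical) against the 2 KE libraries (horizontal) of tumour NK cells, in log2 CPM with a prior count of 2. The solid line marks equal levels and the dotted lines a 2-fold difference. Orange points are robust interferon-stimulated genes (46 tested, Ifit2 among them drawn in black), and black points are genes named in the text; abundant genes such as Gzma lie close to the diagonal, while genes of low level scatter widely on both sides.

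The difference between a KO and a KE library was about as large as that between 2 libraries of one genotype. Over all genes tested, the median absolute log2 difference was 0.79 between KO 1 and KO 2, 0.72 between KE 1 and KE 2, and 0.73 over the 4 pairs of a KO with a KE library. The spread depended on the level. Genes of under 10 CPM had a median absolute difference of 1.12 between the mutants and 1.13 to 1.15 within them. For the 2010 genes of at least 100 CPM, both were small, at 0.35 between the mutants against 0.35 and 0.38 within them.

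**Figure D2:**
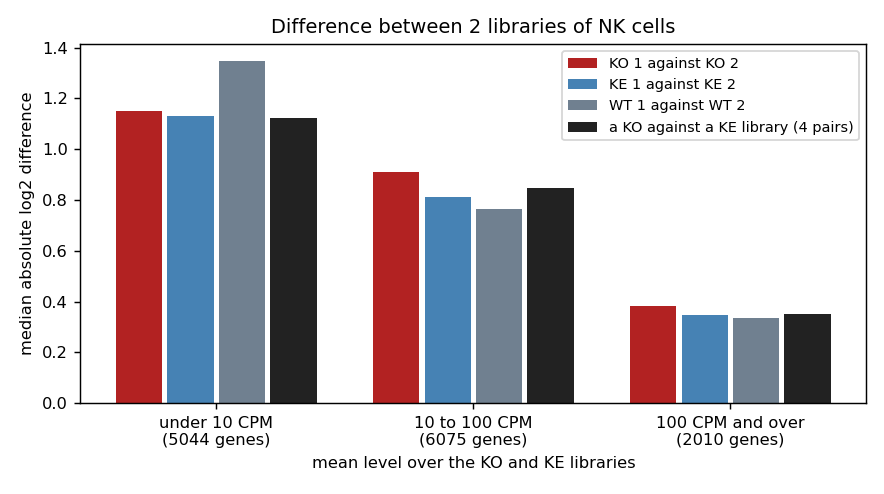
Median absolute log2 difference (log2 CPM, vertical) between 2 NK libraries for genes of 3 ranges of mean level over the KO and KE libraries (horizontal). Red, blue and grey bars compare the 2 libraries of KO, KE and WT, and black bars all 4 pairs of a KO with a KE library; at each level the black bar has about the height of the bars within a genotype.

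What could have been seen was set by the spread that edgeR estimated over all 12 libraries, the CD8 T cell libraries included. Intervals from the NK libraries alone are not given. The 95% interval of the log2 fold change of KO against KE had a median half-width of 0.85 (a 1.80-fold change) for genes of at least 100 CPM, 2.32 for genes of 10 to 100 CPM and 6.88 below that. For 817 genes, 763 of them of at least 100 CPM, the whole interval lay within a 2-fold difference in either direction. These include 42 of the 75 nuclear genes of oxidative phosphorylation (OXPHOS), 14 of 18 genes of antigen processing, 7 of 15 NK identity markers, 6 of 19 genes of the JAK, STAT and IRF list and 6 of 24 genes of the cytotoxic granule. For the other genes a 2-fold difference between the mutants was not excluded in this fit. All-or-none values were frequent within genotypes: 750 genes had at least 50 counts in KO 1 and 0 in KO 2, and 440 the reverse, as did 329 and 660 in KE. By comparison, 41 genes had 0 counts in both KO libraries and at least 50 in both KE libraries, and 39 the reverse.

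No gene of the killing machinery of NK cells passed the test. The mean levels of the main granule genes Gzma, Gzmb and Prf1 were close in KO and KE, while the granzyme inhibitor Serpinb9 had lower values in KO. Gzma, the most abundant granzyme, was at 6918 and 7203 CPM in KO and 6528 and 5685 CPM in KE, though the spread shared with the CD8 T cell libraries left a wide interval of its log2 fold change (-3.85 to 4.27). Gzmb, which cleaves caspases in the target cell, was at 1779 and 1337 CPM in KO and 887 and 1943 CPM in KE, and in WT at 6969 and 4846 CPM, so that KO and KE overlapped each other below WT. Prf1, the pore-forming perforin, was at 1426 and 1228 CPM in KO and 832 and 1828 CPM in KE, and its log2 fold change had a 95% interval of -1.11 to 1.10. Gzmc varied more within the mutants than between them, with 508 and 36.6 CPM in KO and 80.3 and 1374 CPM in KE. Of the 24 genes of the cytotoxic granule list that were tested, 3 had both KO libraries above both KE libraries and 5 had them below (12.5% and 20.8%, against 13.9% and 14.5% of all genes), and the median log2 fold change was -0.13, against 0.00 over all genes.

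Serpinb9, the serpin that shields killer cells from their own granzyme B, stood at 1412 and 1212 CPM in KO, 2679 and 2012 CPM in KE and 1945 and 2264 CPM in WT (chr13:33003250-33017957 on chromosome 13). Both KO libraries were thus below the 4 others, and KE and WT overlapped (log2 fold change -0.84 ± 0.24, unadjusted p = 0.0055 for KO against KE, edgeR, not past the FDR threshold). A related serpin, Serpinb6b, had 401 and 283 CPM in KO and 648 and 486 CPM in KE (log2 fold change -0.73 ± 0.30, unadjusted p = 0.036), while Serpinb9b, a close relative of Serpinb9, had higher values in KO, at 167 and 107 CPM against 96.9 and 53.3 CPM in KE (log2 fold change 0.87 ± 1.65, unadjusted p = 0.61). Ctsc, the cathepsin that activates granzymes, leaned the other way, at 465 and 371 CPM in KO and 258 and 280.2 CPM in KE. Both mutants were far below the 1504 and 1690.3 CPM of WT. Ctsc is also read in myeloid cells, whose markers were highest in WT and in KO 1. The part of such cells in the Ctsc levels was not tested. Gzme was read almost only in KE, at 14.9 and 6.9 CPM against 0 and 0.0735 CPM in KO and 0.0833 and 0.0764 CPM in WT, but it is one of a cluster of near-identical granzymes whose reads may be split or lost in counting.

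Among secreted factors, Ccl5, a chemokine that recruits T cells and dendritic cells, was at 1635 and 1859 CPM in KO, 819 and 1271 CPM in KE and 2337 and 1785 CPM in WT. The KE libraries were the lowest of the 6 and did not overlap KO (log2 fold change 0.74 ± 0.26, unadjusted p = 0.017, chromosome 11, chr11:83525778-83530518). Ccl3 and Ccl4, which NK cells release on activation, were lowest among the 4 mutant libraries in KE 1. Ccl3 had 208 and 385 CPM in KO and 11.2 and 159.9 CPM in KE, so that both KO libraries lay above both KE libraries, and Ccl4, with 699 and 709.5 CPM in KO and 61.8 and 807 CPM in KE, overlapped. Ifng, the chief effector cytokine downstream of IL-12, followed the same order within KE, at 29.8 and 238 CPM, and was at 178 and 123 CPM in KO. Xcl1, which attracts cross-presenting dendritic cells, was at 699 and 873 CPM in KO and 699 and 1519 CPM in KE. Over the list of 17 cytokines and chemokines tested, 2 were higher and 3 lower in both KO libraries (11.8% and 17.6%, near the 13.9% and 14.5% of all genes). Their median of 0.17 was 0 without KO 1 or KO 2 and -0.0863 without KE 1.

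**Figure D3:**
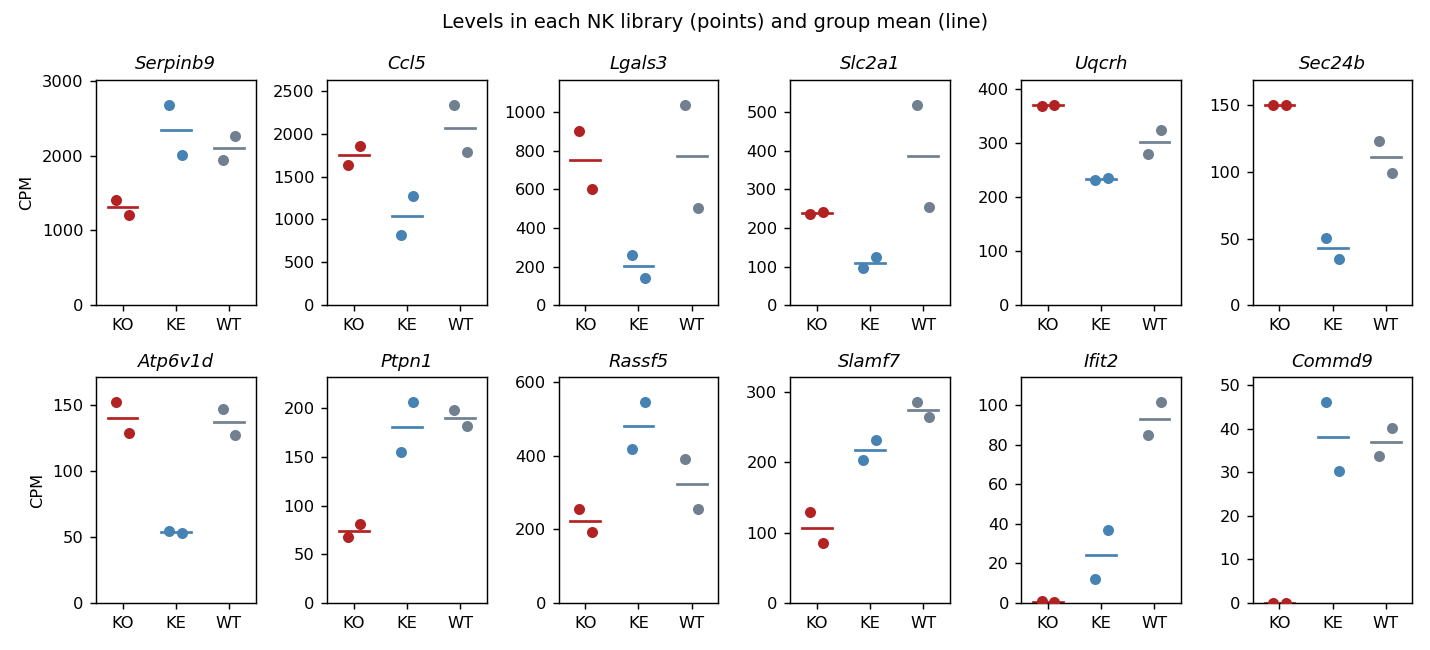
Level in CPM (vertical, linear, from 0) of 12 genes in each of the 6 NK libraries (points), with the group mean as a line and KO, KE and WT on the horizontal axis. Serpinb9, Ptpn1, Rassf5, Slamf7, Ifit2 and Commd9 are lower in both KO libraries than in both KE libraries, and the other 6 are higher; each panel has its own scale.

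Of the 15 NK identity markers 1 was higher and 1 lower in both KO libraries (6.67% and 6.67%, against 13.9% and 14.5% of all genes). Of the 30 maturation genes tested, 5 were higher (16.7%) and 3 lower (10.0%) in both KO libraries, 0 had an unadjusted p under 0.05, and the median log2 fold change was 0.04. The transcription factors that define NK cells overlapped between the mutants: Eomes had 156 and 209 CPM in KO and 142 and 244 CPM in KE, and Tbx21 had 209 and 295 CPM in KO and 278 and 268 CPM in KE. Cd27, which mature NK cells lose, was at 258 and 183 CPM in KO and 267 and 304 CPM in KE, while Klrg1, a receptor gained with maturity, was at 22.6 and 3.16 CPM in KO and 14.2 and 31.4 CPM in KE, both under the 169 and 83.9 CPM of WT. Cxcr3, a chemokine receptor of less mature cells, had the smallest standard error of the list, with 348 and 365 CPM in KO, 312 and 375 CPM in KE and a log2 fold change of 0.05 (95% interval -0.40 to 0.51). Itga1, which marks tissue-resident innate lymphoid cells, was at 122 and 103 CPM in KO and 95.1 and 129 CPM in KE.

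Of 39 NK receptor genes, 3 were higher and 5 lower in both KO libraries (7.69% and 12.8%, against 13.9% and 14.5% of all genes), and 1 had an unadjusted p under 0.05 (3.85% of all genes). Their median was -0.10, -0.34 without KO 1 and 0.0875 without KE 1, and without KO 1 the other KO library lay below both KE libraries for 22 of them (56.4%, against 30.9% of all genes). That gene, Slamf7, an activating receptor of the SLAM family, was at 129 and 84.6 CPM in KO, 203 and 232 CPM in KE and 285 and 265 CPM in WT (log2 fold change -1.03 ± 0.41, unadjusted p = 0.031). The Ly49 receptor gene Klra3 had 219 and 219 CPM in KO and 31.7 and 136 CPM in KE, and reads of this family are uncertain because its members are near-identical. The natural cytotoxicity receptor Ncr1 was at 2028 and 1224 CPM in KO and 1896 and 2275 CPM in KE, and both mutants overlapped above the 839 and 927 CPM of WT. Of the 16 checkpoint genes, 1 was higher and 0 were lower in both KO libraries (6.25% and 0%, against 13.9% and 14.5% of all genes), and the receptor gene Pdcd1 was high in KO 1 alone, at 29.3 and 1.32 CPM in KO and 1.38 and 1.56 CPM in KE.

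No receptor that uses TYK2 passed the test between cells with and without the protein. Ifnar1, the interferon receptor chain that TYK2 binds, was at 163 and 175 CPM in KO, 252 and 229.6 CPM in KE and 213 and 248 CPM in WT. The KO libraries were the lowest of the 6, but the 95% interval of the log2 fold change (-0.51, -1.54 to 0.51) held 0. Its partner chain Ifnar2 was at 135 and 132 CPM in KO and 122 and 122 CPM in KE. The IL-12 receptor chain bound by TYK2, Il12rb1, had 30.8 and 33.2 CPM in KO and 41.8 and 18.2 CPM in KE, and the signalling chain Il12rb2 had 129 and 74.1 CPM in KO and 42.8 and 181 CPM in KE. Il10rb, the TYK2-binding chain of the IL-10 family, did not separate the groups at 210.1 and 214 CPM in KO and 223 and 189.8 CPM in KE (95% interval -0.55 to 0.63). The ligand-binding chain Il10ra was lower in both KO libraries, at 124 and 120.1 CPM against 232 and 231 CPM in KE and 318 and 248 CPM in WT (log2 fold change -0.93 ± 0.50, unadjusted p = 0.095). Over the 14 TYK2-coupled receptor genes tested, 1 was higher and 3 lower in both KO libraries (7.14% and 21.4%, against 13.9% and 14.5% of all genes). The median was -0.32, 0 without KE 2 and -0.53 without KO 1.

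Downstream of these receptors, 0 of the 19 genes of the JAK, STAT and IRF list had an unadjusted p under 0.05, with 2 higher and 4 lower in both KO libraries (10.5% and 21.1%, against 13.9% and 14.5% of all genes) and a median of -0.06. Jak1, the usual partner of TYK2, was at 1053 and 1579 CPM in KO and 1251 and 1184 CPM in KE, with an interval of -0.42 to 0.65 on the log2 scale. Jak2 (16.6 and 90.6 CPM in KO, 80.6 and 54 CPM in KE) and Jak3 (17.5 and 28.6 CPM in KO, 27.8 and 58.4 CPM in KE) were less abundant and less even. Stat4, which carries the IL-12 signal, was at 317 and 266 CPM in KO and 407 and 220.1 CPM in KE, and Stat3 at 428 and 229.7 and 318 and 299.7 CPM. The KO and KE libraries overlapped for each of these 3 other Janus kinases.

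Of the 21 negative regulators of the pathway, 2 were higher and 6 lower in both KO libraries (9.52% and 28.6%, against 13.9% and 14.5% of all genes). Their median was 0.09, with a range of -0.22 to 0.22 when each library was left out in turn. The member of smallest p was Ptpn1, whose phosphatase product PTP1B dephosphorylates JAK2 and TYK2. It was at 68 and 80.8 CPM in KO, 155 and 206 CPM in KE and 198 and 181 CPM in WT, so that the 2 KO libraries lay below the other 4 (log2 fold change -1.28 ± 0.37, unadjusted p = 0.0063, chromosome 2, chr2:167932057-167979385). The tyrosine phosphatase genes Ptpn6 and Ptpn2 were uneven between the KO libraries: Ptpn6 (SHP-1) had 445 and 147 CPM in KO and 522 and 702 CPM in KE, and Ptpn2 had 129 and 32.5 CPM in KO and 232 and 141 CPM in KE. The feedback inhibitors Socs1 (79.2 and 71.8 CPM in KO, 57.8 and 84 CPM in KE) and Cish (106 and 200.5 CPM in KO, 117 and 174 CPM in KE), which cytokine signalling itself induces, overlapped between the mutants. Usp18, the interferon-induced inhibitor at the type I receptor, was at 7.82 and 69.1 CPM in KO and 24.6 and 17.4 CPM in KE, and all 4 values were under the 280.1 and 275 CPM of WT.

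Interferon-stimulated genes (ISGs) are the best known targets of TYK2. Type I interferon leads to a complex of STAT proteins with IRF9 that binds interferon-stimulated response elements, and interferon-γ acts mostly through other sites. In 300-base windows around the start sites (250 bases before to 50 after, from RefSeq, GRCm38.p6), the core of such an element was searched as TTTCNNTTTC on both strands (GAAANNGAAA on the other). It was present in 3.44% of all 32851 windows and in 16 of 39 windows of robust ISGs. The following stretches are shown because they carry the matches, in capitals, of some of the ISGs whose levels are given next and of Serpinb9. Positions are in bases from the start site.
Ifit1, chr19:34640760-34640838, plus strand, matches beginning at -104 and -85: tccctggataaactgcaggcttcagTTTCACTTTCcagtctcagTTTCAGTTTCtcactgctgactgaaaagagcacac
Ifit3, chr19:34583348-34583441, plus strand, matches at -156 and -122: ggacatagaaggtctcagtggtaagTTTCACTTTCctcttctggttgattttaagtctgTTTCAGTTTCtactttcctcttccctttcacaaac
Isg15, chr4:156200850-156200921, minus strand, 3 matches that overlap, from -78: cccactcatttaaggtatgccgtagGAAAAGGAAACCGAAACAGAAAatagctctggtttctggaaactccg
Gbp7, chr3:142530258-142530317, plus strand, match at -53: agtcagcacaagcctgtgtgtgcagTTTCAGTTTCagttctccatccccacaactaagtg
Oas1a, chr5:120907505-120907570, minus strand, 2 matches that overlap, from -20: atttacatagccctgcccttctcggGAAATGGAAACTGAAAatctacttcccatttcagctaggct
Serpinb9, chr13:33004470-33004529, plus strand, match at -46: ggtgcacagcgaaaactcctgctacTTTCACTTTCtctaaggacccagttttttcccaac
A match is a description of the letters, and binding was not measured. The windows of Ifit2, Irf7 and Il1rn held no such letters.

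No ISG passed the test between KO and KE. Of 65 robust ISGs, a list that the study took from earlier work on genes induced by interferon in most cell types, 46 were tested. Their median log2 fold change was -0.02, and 13 had both KO libraries below both KE libraries (28.3%, against 14.5% of all genes) and 3 had them above (6.52%, against 13.9%). An unadjusted p under 0.05 was found for 3 that were higher in KO (Oas1a, Mx2 and Il1rn) and 2 that were lower (Ifit2 and Gbp7), against 1.77% and 2.08% of all genes. Without KO 1, the library rich in myeloid transcripts, KO 2 was below both KE libraries for 21 of the 46 (45.7%, against 30.9% of all genes) and above both for 10 (21.7%, against 31.8%), and the median of the list was -0.41. Without KO 1 other lists had shares below both KE libraries that were as large, such as 56.4% of the NK receptors, 52.4% of the negative regulators and 51.7% of the mTORC1 and sterol genes. Against WT, the medians of the list were -1.16 for KO and -1.19 for KE, which share the WT libraries, and the WT libraries were also the ones richest in myeloid transcripts. Their part in the medians was not tested.

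**Figure D4:**
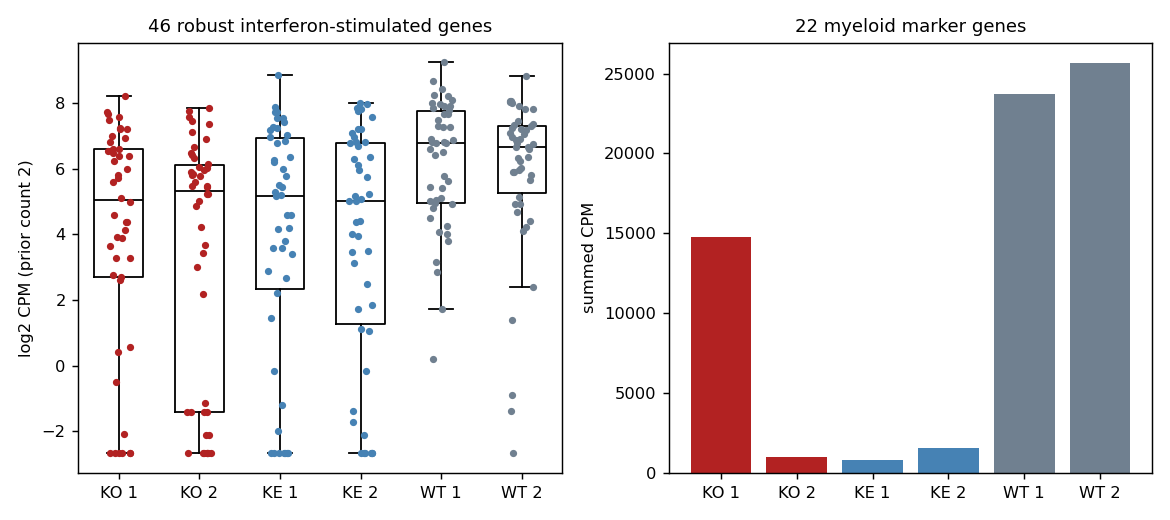
Left, log2 CPM (prior count 2) of the 46 robust ISGs tested (points) in each NK library, with a box for the quartiles, a line for the median and whiskers to 1.5 times the box. Right, summed CPM of the 22 myeloid marker genes in the same libraries; KO 1 and both WT libraries hold the largest sums, from 14792 to 25648 CPM.

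Among the antiviral ISGs, Ifit1, Ifit3, Oasl2 and Mx1 overlapped between KO and KE and had lower values in both mutants than in WT. Ifit1 was at 23.8 and 79.3 CPM in KO, 36.4 and 20.3 CPM in KE and 111 and 117 CPM in WT. Ifit3 varied little among the 4 mutant libraries, at 12.4 and 10.5 CPM in KO and 10.3 and 10.9 CPM in KE, against 90.3 and 25.6 CPM in WT. Oasl2, an antiviral relative of the oligoadenylate synthetases, was at 31.4 and 39.4 CPM in KO, 23.5 and 47.9 CPM in KE and 170.4 and 128 CPM in WT, and Mx1 at 9.44 and 0.221 CPM in KO, 4.5 and 0 CPM in KE and 203 and 159 CPM in WT. Irf7, the factor that amplifies the interferon response, was at 96 and 102 CPM in KO, 126 and 146 CPM in KE and 604 and 449 CPM in WT, so that KO lay below KE without overlap and both below WT, and the log2 fold change of KO against KE was within its error (-0.46, 95% interval -1.88 to 0.96). Isg15 was scarce in all 6 libraries (6.66 and 4.41 CPM in KO, 6.24 and 1.93 CPM in KE).

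Ifit2 departed from its neighbours Ifit1 and Ifit3 on chromosome 19. It had 1.16 and 0.221 CPM in KO, 11.8 and 36.9 CPM in KE and 84.9 and 101 CPM in WT (log2 fold change -5.12 ± 1.03, unadjusted p = 0.00051, chr19:34550694-34576419). The interferon-induced GTPases, which include the guanylate-binding proteins that attack membranes of intracellular pathogens, had members with values on either side. Gbp6 was at 2.86 and 3.6 CPM in KO, 12 and 11.8 CPM in KE and 35.9 and 29.7 CPM in WT, in the order of Ifit2. Gbp7 was at 213 and 215 CPM in KO, 460.0 and 251 CPM in KE and 296 and 260.1 CPM in WT, so that KE and WT overlapped above KO. Of the immunity-related GTPases, Irgm1 was at 171 and 152 CPM in KO and 131 and 110.3 CPM in KE, and Tgtp2 at 75.5 and 60.6 CPM in KO and 59 and 55.9 CPM in KE, both higher in KO. Of the 16 interferon-induced GTPases tested, 2 were higher and 3 lower in both KO libraries (12.5% and 18.8%, near the 13.9% and 14.5% of all genes), and their median was -0.10; several are near-identical copies whose reads may be split. Ifi204, a DNA sensor gene of the tunable ISG list, had 0.232 and 0 CPM in KO, 14 and 11.4 CPM in KE and 207 and 149.8 CPM in WT, while the median of the 11 tunable ISGs tested was -0.05 (-0.18 without KO 1 and 0.28 without KE 2). The 3 robust ISGs that were higher in KO at an unadjusted p under 0.05 were high in 1 KO library each. Oas1a (5.88 and 0.0735 CPM in KO) and Il1rn (126 and 0 CPM) were high in KO 1, and Mx2 (0.0774 and 32.3 CPM) in KO 2. The part of the myeloid transcripts of KO 1 in these levels was not tested. Besides Oas1a, the robust ISGs above KE in both KO libraries were Stat2, a partner of IRF9, at 52.5 and 43.2 CPM in KO and 38.5 and 32.4 CPM in KE, and Trim25, a ubiquitin ligase of RNA sensing, at 33.9 and 28.8 CPM in KO and 23.7 and 5.41 CPM in KE.

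Genes of energy metabolism gave no call. TYK2 has been linked to mitochondrial respiration, and of the 75 nuclear OXPHOS genes tested 17 were higher and 12 lower in both KO libraries (22.7% of the list against 13.9% of all genes, and 16% against 14.5%), with a median of 0.10. Uqcrh, the hinge subunit of complex III, was at 368 and 370.0 CPM in KO, 232 and 235 CPM in KE and 279 and 324 CPM in WT (log2 fold change 0.66 ± 0.19, unadjusted p = 0.0059), and Cox8a of complex IV was at 443 and 474 CPM in KO and 294 and 339 CPM in KE. Uqcrc1, a core subunit of the same complex as Uqcrh, went the other way with 291 and 331 CPM in KO and 441 and 489 CPM in KE. The share of counts on mitochondrial genes varied within the mutants, from 2.4% and 4.22% in KO to 4.64% and 2.65% in KE.

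Of 37 genes of glycolysis and the hypoxia response, 10 were higher and 3 lower in both KO libraries (27% and 8.11%, against 13.9% and 14.5% of all genes), with a median of 0.29 and 0 past the FDR threshold. The median was -0.00177 without KO 2 and 0.28 without KO 1. The glucose transporter gene Slc2a1 was at 236 and 241 CPM in KO, 95.2 and 126 CPM in KE and 519 and 256 CPM in WT (log2 fold change 1.11 ± 0.37, unadjusted p = 0.014). Slc2a3, a second glucose transporter, was at 101 and 72.6 CPM in KO and 28.8 and 38.8 CPM in KE, and the lactate exporter Slc16a3 at 7.28 and 17.9 CPM in KO, 0 and 0.593 CPM in KE and 90.7 and 26.2 CPM in WT. Of 29 genes of mTORC1 and sterol metabolism, 1 was higher and 8 were lower in both KO libraries (3.45% and 27.6%, against 13.9% and 14.5% of all genes). The median was -0.18, 0 without KE 2 and -0.54 without KE 1. Among them Mthfd2, a mitochondrial enzyme of folate metabolism, was at 0.232 and 0 CPM in KO and 17.1 and 4.97 CPM in KE.

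Of 42 cell cycle genes, 9 were higher and 8 lower in both KO libraries (21.4% and 19%, against 13.9% and 14.5% of all genes), with a median of 0.00. An unadjusted p under 0.05 was found for 6 that were higher and 5 that were lower in KO, against 1.77% and 2.08% of all genes, and 0 passed the FDR threshold. Many of these genes had few or no counts in single libraries. The mean level of the list was 1.18 and 1.17 log2 CPM in KO, 0.60 and 1.24 in KE and 3.46 and 2.09 in WT. Among the mutant libraries, Kif11 and Aurka, which build the mitotic spindle, were read almost only in KO 2 (Kif11 0.232 and 16.5 CPM and Aurka 0 and 25.8 CPM in KO, with 0 counts of either in KE). Among the same libraries Tpx2, an activator of Aurora A, was read almost only in KE (17.7 and 20.8 CPM against 0.0774 and 0.0735 CPM in KO). Mcm6, a subunit of the replicative helicase and the most abundant of those named, was at 175 and 162 CPM in KO, 339.7 and 274 CPM in KE and 201 and 226 CPM in WT (log2 fold change -0.87 ± 0.33, unadjusted p = 0.023).

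**Figure D5:**
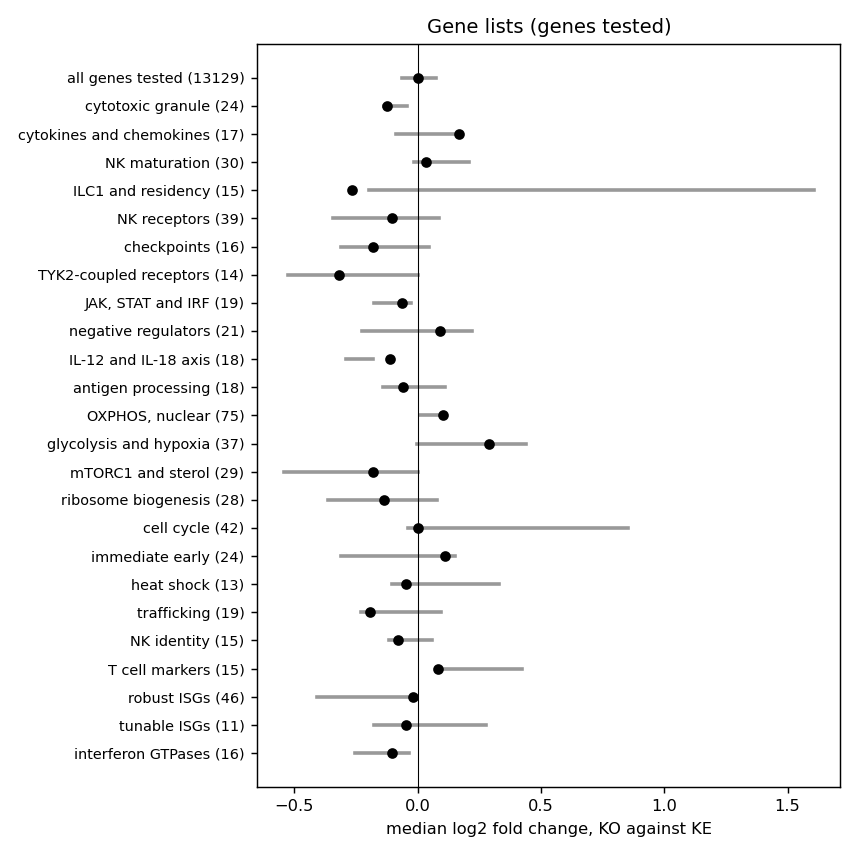
Median log2 fold change of KO against KE in NK cells (horizontal) for all genes and for 24 gene lists, with the number of genes tested in parentheses. Points are medians with all 4 libraries and grey lines span the medians with each of the 4 libraries left out in turn. The myeloid markers, with a median of 3.61 (-1.96 without KO 1), and lists of 7 or fewer genes tested are not drawn. The points lie between -0.32 and 0.29, and a line that does not reach its point shows that every omission moved the median the same way.

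Ranked by p among genes with separate KO and KE values, the genes lower in KO were led by Commd9, Camk4 and Ccr8. Commd9, a subunit of the COMMD complex of endosomal sorting, had 0 and 0.0735 CPM in KO, 46.1 and 30.3 CPM in KE and 33.8 and 40.1 CPM in WT (unadjusted p = 4.4e-05, adjusted p = 0.564, edgeR; chr2:101886247-101901646, chromosome 2). Its 2 KO libraries held 0 and 1 count, so that no fold is given. In CD8 T cells the same gene was at 16.7 and 18.3 CPM in KO and 53.8 and 46.4 CPM in KE. Camk4, a calcium-dependent kinase, was at 0.387 and 1.1 CPM in KO, 15.2 and 8.3 CPM in KE and 22.2 and 12 CPM in WT (log2 fold change -3.96 ± 0.66, unadjusted p = 0.00011). The chemokine receptor gene Ccr8 was at 0.619 and 0.441 CPM in KO, 10.7 and 14.1 CPM in KE and 0.25 and 1.07 CPM in WT, so that KE, not KO, stood apart. Gm26825, a long non-coding RNA gene, and Trib2, a pseudokinase, likewise were read almost only in KE, at 39.3 and 63.8 CPM and 26.9 and 19.6 CPM against at most 0.147 CPM in any KO or WT library.

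The genes higher in KO were led by Agpat4, Kif20a and Phf11c. Kif20a, a kinesin of dividing cells, was at 1.86 and 2.65 CPM in KO, 0.0918 and 0.0741 CPM in KE and 5.33 and 7.19 CPM in WT, and Phf11c, one of a family of interferon-inducible genes with near-identical copies, at 5.34 and 16.5 CPM in KO, 0.0918 and 0.297 CPM in KE and 16.8 and 19.6 CPM in WT. Agpat4, an acyltransferase of phospholipid synthesis, was at 26.6 and 26.5 CPM in KO, 2.75 and 1.78 CPM in KE and 17.7 and 39.1 CPM in WT (log2 fold change 3.55 ± 0.68, unadjusted p = 0.00034; chr17:12118704-12219645, chromosome 17). Sec24b, a cargo subunit of the COPII coat that leaves the endoplasmic reticulum, was at 150.4 and 149.9 CPM in KO, 50.8 and 34.9 CPM in KE and 123 and 99.5 CPM in WT (log2 fold change 1.81 ± 0.39, unadjusted p = 0.00089; chr3:129982759-130061553, chromosome 3). Atp6v1d, a subunit of the proton pump of lysosomes, followed the same order, at 152 and 128 CPM in KO, 54.7 and 53.2 CPM in KE and 146 and 127 CPM in WT (log2 fold change 1.38 ± 0.32, unadjusted p = 0.0013; chr12:78840725-78861638, chromosome 12). For all of these KE was below KO and WT, while KO and WT overlapped for Agpat4 and Atp6v1d. Lgals3, which encodes galectin-3 and is abundant in myeloid cells, was at 903 and 599.7 CPM in KO, 261 and 139.9 CPM in KE and 1037 and 503 CPM in WT. The part of the myeloid transcripts of KO 1 and WT in these levels was not tested. Hdac6, the cytoplasmic deacetylase of tubulin, was instead high in KO alone, at 18.2 and 18.9 CPM against 0.459 and 0.445 CPM in KE and 1.67 and 5.43 CPM in WT.

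Among genes with a mean of at least 50 CPM, those lower in KO were led by Rassf5, an effector of RAP1 that controls lymphocyte adhesion, at 255 and 193 CPM in KO, 418 and 546 CPM in KE and 392 and 256 CPM in WT (log2 fold change -1.11 ± 0.28, unadjusted p = 0.0027). Next came Mars, the methionyl-tRNA synthetase, at 63.6 and 60.8 CPM in KO, 158 and 161 CPM in KE and 58.6 and 87.5 CPM in WT; its exons overlap those of Ddit3 on the other strand. Kpna3, a nuclear import receptor, was at 25.5 and 29.3 CPM in KO, 86.1 and 93 CPM in KE and 65.9 and 83.1 CPM in WT, and Stx7, a syntaxin of late endosomes, at 39.3 and 32.7 CPM in KO, 133 and 119 CPM in KE and 123 and 196 CPM in WT. For Kpna3 and Stx7, unlike Mars, both KO libraries lay below the other 4. Dgka, the diacylglycerol kinase that damps receptor signalling, was among those higher in KO, at 108 and 126 CPM in KO, 52.7 and 68.4 CPM in KE and 262 and 192 CPM in WT.

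Other contrasts set 1 mutant against the other mutant and WT together, to ask for levels that go with the presence of the protein or with its inactive form. KO against KE and WT together gave 0 genes past the FDR threshold and 679 at an unadjusted p under 0.05 (5.17%). Smallest in p were Commd9, Camk4, Ifit2, Eno3 and Mthfd2, all low in KO. Eno3, the muscle form of the glycolytic enzyme enolase, was at 0 and 0.147 CPM in KO, 14.6 and 39.7 CPM in KE and 19.7 and 14.8 CPM in WT. KE against KO and WT together gave 0 genes past the threshold and 655 at an unadjusted p under 0.05 (4.99%), led by Ccr8, Gm26825, Trib2, Ctsc and Kif20a. Its smallest adjusted p was 0.087.

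In CD8 T cells, which have libraries of their own, KO against KE also gave 0 genes past the threshold and 481 at an unadjusted p under 0.05 (3.66%). The difference between the cell types, tested as an interaction, gave 0 genes, 629 at an unadjusted p under 0.05 (4.79%) and a smallest adjusted p of 0.969, so that no difference of KO from KE was shown to be particular to NK cells. The gene lists had medians between -0.48 and 0.59 in CD8 T cells for the 24 lists plotted. Agpat4 was at 96 and 119 CPM in KO and 49.1 and 54.2 CPM in KE CD8 T cells, where the mutants did not overlap (unadjusted p = 0.11, edgeR). Sec24b was at 97 and 83.7 CPM in KO and 75.8 and 97.4 CPM in KE CD8 T cells, and Serpinb9 at 1015 and 876 CPM in KO and 668 and 1089 CPM in KE, and both overlapped there.

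The 104 tested genes within 10 Mb of Tyk2 on chromosome 9 were examined because alleles made in another strain can bring flanking sequence with them. Of these, 11 were higher (10.6%) and 21 lower (20.2%) in both KO libraries, against 13.9% and 14.5% of all genes, 7 had an unadjusted p under 0.05 (6.73%, against 3.85% of all genes), 6 of them lower in KO, and 0 passed the FDR threshold. The smallest p was that of Yipf2, a Golgi membrane protein gene 0.457 Mb from Tyk2 (chr9:21588682-21592828), at 0.31 and 0.0735 CPM in KO, 15.3 and 36.3 CPM in KE and 12 and 9.56 CPM in WT. Its exons overlap those of Carm1 and Timm29 on the opposite strand, and the counting is not stated to use strand.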

How the data were processed

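RNA of 300 sorted cells per library was amplified by Smart-seq2 from 500 pg of RNA. The authors trimmed single-end reads with Trimmomatic, aligned them with STAR to the mouse genome (mm10, the same assembly as GRCm38) and counted uniquely aligned reads in exons per gene, and the deposited values are raw counts. Because only unique reads were counted, near-identical genes lose reads, and the kit does not mark strand. From these counts, 13129 genes with a mean of at least 10 normalized counts were tested with edgeR 4.0.16 (R 4.3.3; TMM, quasi-likelihood, 6 groups and all 12 libraries, which share 1 estimate of the spread), with Benjamini-Hochberg adjustment over all genes. CPM are TMM-scaled, errors of log2 fold changes are standard errors, and intervals are 95% intervals. A call needed an FDR under 0.05 and a 2-fold change. Alternatives were DESeq2 1.42.0, limma-voom 3.58.1, other filters and libraries, and each library left out in turn. "Above" or "higher in both" counts genes whose 2 KO values exceed both KE values.

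The members and lists were chosen with earlier results of these data known. Named genes were fixed pathway genes, those of smallest p in each direction with separate KO and KE values (also from 50 CPM upward), the smallest p of each list in each direction and up to 5 of each other contrast. Gzme, Serpinb6b, Serpinb9b, Klra3, Il10ra, Ptpn2, Ptpn6, Gbp6, Irgm1, Tgtp2, Trim25, Ifi204, Slc2a3, Slc16a3, Cox8a, Kif11, Aurka and the genes of the closing observations were named after their values were seen. The fits were also run on simulated counts, whose outcome is not given here and is not used as support. The columns of all 12 libraries were used by their titles.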

Additional observations from a re-analysis of the deposited data

How the results depend on the processing

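No gene passed the threshold between KO and KE NK cells with edgeR under the stricter filter, another scaling, the 6 NK or the 4 mutant libraries alone or with any library left out, nor with limma-voom. Without a filter on low counts 96 genes passed and DESeq2 called 197. Genes at an unadjusted p under 0.05 (505) numbered 861 without a filter, 914 with DESeq2, 309 with the 4 mutant libraries alone and 374 to 874 with a library left out. The largest number came without KO 1 (874, 211 higher and 663 lower), and the counts of list members without that library were added after seeing the data. KO against KE and WT together gave 79 genes without a filter, 190 with DESeq2 and 0 to 7 with a library left out. KE against KO and WT together gave 161, 221, 4 with limma-voom and 0 to 4, and the interaction gave 105 and 167. Why these methods differ was not tested.

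Same-numbered NK libraries did not deviate together between genotypes (correlations -0.02, 0.01 and 0.01 over 13129 genes). With so wide a spread between libraries, this cannot tell whether equal numbers stand for something shared. With a replicate block 0 genes passed, 332 had an unadjusted p under 0.05, and the trafficking median moved to -0.099.

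With a library left out, list medians ranged from -0.017 to 0.21 for maturation, -0.20 to 1.61 for ILC1 genes, -0.18 to -0.028 for JAK, STAT and IRF genes, 0.012 to 0.10 for nuclear OXPHOS, -0.0018 to 0.44 for glycolysis, -0.041 to 0.85 for the cell cycle, -0.31 to 0.15 for immediate early genes (-0.10 with limma-voom), -0.10 to 0.33 for heat shock, -0.23 to 0.093 for trafficking, -1.96 to 6.17 for myeloid, 0.076 to 0.42 for T cell and -0.12 to 0.060 for NK identity markers, -0.41 to -0.027 for robust ISGs, -0.53 to 0 for TYK2-coupled receptors, -0.54 to 0 for mTORC1 and sterol genes, -0.22 to 0.22 for negative regulators, -0.086 to 0.17 for cytokines (-0.13 with limma-voom), -0.34 to 0.087 for NK receptors, -0.31 to 0.045 for checkpoints, -0.29 to -0.18 for the IL-12 and IL-18 axis, -0.14 to 0.11 for antigen processing, -0.36 to 0.080 for ribosome biogenesis, -0.18 to 0.28 for tunable ISGs, -0.25 to -0.034 for interferon GTPases and -0.14 to -0.044 for cytotoxic granules. Of the named genes with an unadjusted p under 0.05 in the main edgeR fit, Il1rn (-3.68 to 12.65) and Pdcd1 (-0.15 to 4.31) changed sign. Sign changes of the other named genes were not counted. Of 1495 alternatives for 115 named genes, 1437 kept the side of the threshold and 56 passed it.

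With 2 libraries a group and a common biological coefficient of variation of 109%, the 95% intervals of most genes under 100 CPM were wider than a 2-fold difference.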

Other observations

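Further lists held no gene past the FDR threshold. Antigen processing was the most even of them: B2m, the light chain of class I histocompatibility molecules, was at 8136 and 6565 CPM in KO and 7931 and 7799.7 CPM in KE, and H2-K1, a class I heavy chain, at 5776 and 5301 CPM in KO and 5422 and 6796 CPM in KE. Of the 18 genes of this list, 1 (Calr, a chaperone of the endoplasmic reticulum) was lower in both KO libraries and 0 were higher (5.56% and 0%, against 14.5% and 13.9% of all genes). Among receptors of the common γ chain family, Il2rb, through which NK cells respond to IL-15, was at 3995 and 3383 CPM in KO and 3692 and 3694 CPM in KE. Il2ra, the chain that makes the IL-2 receptor highly sensitive and that IL-12 can induce, was scarce in the mutants, at 0 and 0.441 CPM in KO, 3.12 and 5.86 CPM in KE and 16.4 and 27.7 CPM in WT, with the 3 groups in this order without overlap (unadjusted p = 0.0043 for KO against KE, edgeR, not past the FDR threshold). Il7r was uneven within both mutants (18.7 and 72.4 CPM in KO, 193 and 52.2 CPM in KE).

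Of the 19 trafficking genes tested, 3 were higher and 3 lower in both KO libraries (15.8% and 15.8%, against 13.9% and 14.5% of all genes), and the homing genes Selplg (2835 and 2628 CPM in KO, 3373 and 3058 CPM in KE) and Ccr2 (1273 and 726 CPM in KO, 1535 and 1267 CPM in KE) were abundant in all 4 libraries. Cd69, an early activation marker that retains cells in tissue, was at 149 and 52.7 CPM in KO, 171 and 165 CPM in KE and 493 and 296 CPM in WT. Both KO libraries lay below both KE libraries, KO 2 by more, and all mutant libraries lay below WT. Of 13 heat shock genes, 4 were higher and 0 lower in both KO libraries (30.8% and 0%, against 13.9% and 14.5% of all genes) and the median was -0.05. The higher ones included the cochaperone gene Dnajb1 at 110.2 and 148 CPM in KO and 88.9 and 79.2 CPM in KE. Myc, which drives ribosome production, was at 233 and 277 CPM in KO and 96.6 and 252 CPM in KE, and the 28 ribosome biogenesis genes had a median log2 fold change of -0.13 (-0.36 without KE 1 and 0.08 without KE 2).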
